A study of Mus musculus with 10 samples.

Results

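The synaptic vesicle release machinery is the set of proteins with which a neuron fills, docks, fuses and recovers the vesicles that hold its transmitter. It was followed through 36 genes, taken by their symbols from the 34254 genes of the count tables, and all 36 were among the 14234 genes that passed the filter on low counts. By role they comprised 16 vesicle proteins, 8 SNAREs and SNARE partners, 7 active zone proteins and 5 proteins of vesicle endocytosis. RGCs, the retinal neurons whose axons form the optic nerve, came from wild-type 129S1/SvImJ mice of both sexes at 12 weeks of age, with no injury or 2 weeks after ONC, a crush that severs RGC axons. The labels name no transgene, deletion or drug for either condition. Cells from pools of 10 retinas per batch were caught on an antibody against the surface protein Thy1 after macrophages had been removed, and their RNA was counted by droplet scRNA-seq with UMIs, tags that mark each captured RNA molecule. The series description adds a FACS step, and the methods add removal of amacrine cells and name another reagent kit and sequencer than the labels, so these points are uncertain. Which animals entered which library is not stated, so p-values measure the spread between libraries, which may be technical in part.

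The 6 uninjured libraries, by number, held 98, 103, 363, 651, 267 and 201 cells with 2839693, 3423989, 12673923, 23180399, 5686605 and 4674981 UMIs. Injured libraries 1 to 4 held 338, 273, 527 and 471 cells with 5934728, 4698799, 8860536 and 6275218 UMIs. The median cell of a library had 20437 to 34337 UMIs in uninjured and 11257 to 14695 UMIs in injured RGCs. Injured 3 and 4 shared 421 of their 527 and 471 barcodes, and between their sums the median gene differed no more than sampling predicts (chi-square over noise 0.985). Their average was therefore used as a single sample, injured 3/4, so 6 uninjured samples were compared with 3 injured ones. Uninjured 1 and 2 (1.82), 3 and 4 (1.87) and 5 and 6 (1.47) were closer to each other than any other uninjured libraries (3.86 to 21.2), as were injured 1 and 2 (2.28) among injured libraries (others 4.76 to 5.12), so the libraries may stand for fewer independent pools than their number. Injured 3 and 4 also stood apart by UMIs of mCherry, a fluorescent protein that a virus can deliver, in 86.0% and 84.3% of cells, against 7.99% and 15% in injured 1 and 2. No uninjured cell of 1683 had such a UMI, which over the pooled cells allows a share with a detected UMI of up to 0.178% and sets no limit on cells below detection. The methods name an AAV2 vector with mCherry as a control, and the labels do not say which libraries, if any, received it. Xist, a transcript of female cells, was seen in 62.1% (injured 1) and 67.4% (injured 2) of cells, while no other library passed 0.569%. The label of both sexes is thus uncertain for single libraries, and sex may differ between the conditions; its part in the differences was not tested.

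In a presynaptic terminal, the vesicle proteins load transmitter and sense calcium, and SNARE proteins on the vesicle and the plasma membrane zip together to fuse the membranes. Active zone proteins hold vesicles and calcium channels at the release site and prime vesicles for fusion. Endocytosis proteins then retrieve the membrane and rebuild vesicles. RGCs release glutamate from terminals in the brain at the far end of the optic nerve, and a crush cuts their cell bodies in the retina off from those terminals.

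The paper bases RGC identity on co-expression of Rbpms, Sncg, Tubb3 and Slc17a6. The presence of these markers may follow from a choice of cells by them, so it is no separate check of identity. Rbpms, an RNA-binding protein of RGCs, measured 623 to 766 CPM (median 707) in uninjured samples and 293, 284 and 328 CPM in injured 1, 2 and 3/4. Sncg, a synuclein abundant in RGCs, measured 1426 to 3315 CPM (median 2053) and 766, 1017 and 1366 CPM, and Tubb3, a neuronal tubulin, 374 to 781 CPM (median 461) and 956, 1110 and 1719 CPM. Of these, Rbpms (log2 fold change -1.21 ± 0.14 (SE), adjusted p = 3.85e-05) and Sncg (log2 fold change -1.06 ± 0.31 (SE), adjusted p = 0.0166) fell and Tubb3 rose (log2 fold change 1.22 ± 0.28 (SE), adjusted p = 0.00415). Slc17a6 is given with the vesicle proteins.

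After ONC most release genes that changed were lower: 19 of the 36 fell and 2 rose, while 15 did not pass the threshold of the test over all genes (edgeR's quasi-likelihood test, adjusted p under 0.05). Over all 14234 genes tested, 22.7% fell and 21.3% rose. Among the 5821 genes whose average log2 CPM reached 5, as it did in 33 of the 36, 21.3% fell and 23.2% rose. The median log2 fold change was -0.62 over the release genes and -0.03 over all genes. The 36 members were chosen with earlier results of these data known, so these counts are no independent test of the pathway. Of 100 other pathway genes tested, 23.0% fell and 23.0% rose, with a median log2 fold change of 0.02. CPM is the number of UMIs of a gene per 1000000 of the sample's total, scaled by the sample's TMM factor. In 20 of the 36 genes (55.6%) every injured sample lay beyond every uninjured sample, against 42.9% of all genes. Summed over the 36 genes, the level was 13334 to 15930 CPM in uninjured samples and 10668, 10284 and 9146 CPM in injured 1, 2 and 3/4. For a single gene the exact permutation test over 6 and 3 samples could not give a p below 0.0238, which it gave wherever the conditions did not overlap. With similar libraries summed, 3 uninjured units against 2 injured ones, 13 of the 19 stayed lower past the threshold and 1 of the 2 higher, without Syp, Rab3c, Vamp2, Cplx1, Amph, Synj1 and Snap91, and with 13.9% lower and 13.6% higher among the 15601 genes tested there. Of the 21 genes past the threshold, 11 stayed past it in all alternative settings in which they were tested: Syt3, Syt4, Sv2a, Sv2b, Rab3a, Snap25, Vamp1, Cplx2, Nsf, Unc13a and Sh3gl2. The same share over all genes past the threshold is not given here, so the 11 stand without a background.

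**Figure D1:**
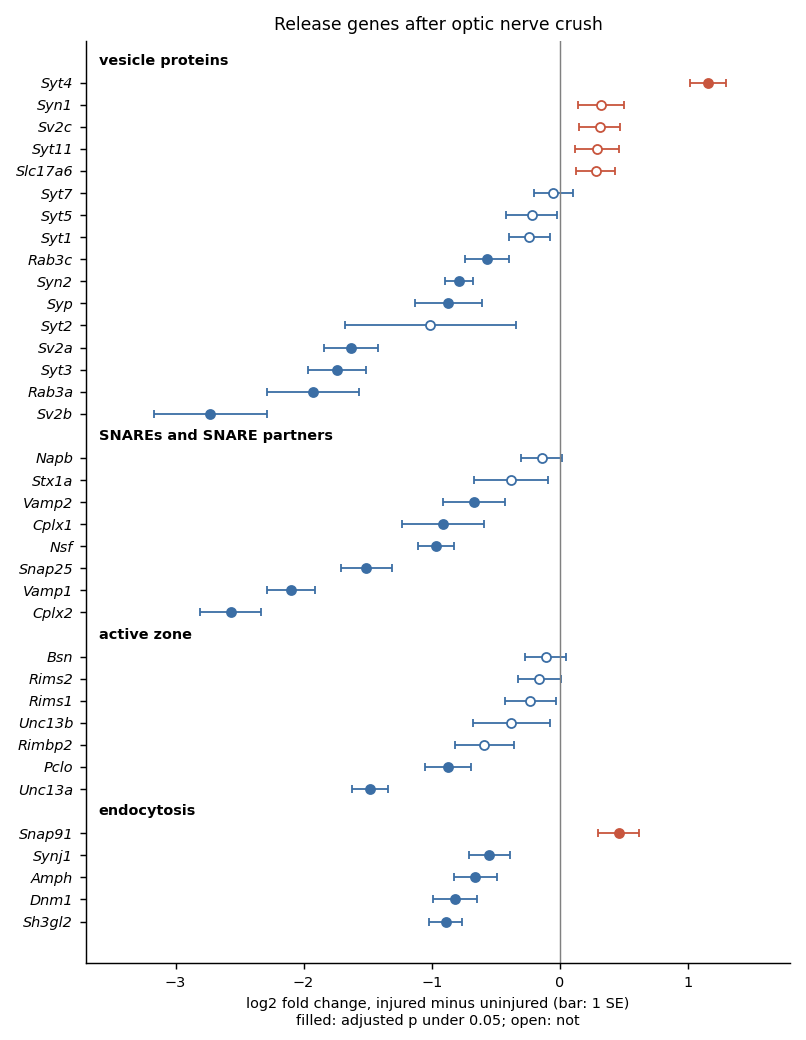
Log2 fold change of each release gene, injured minus uninjured (x axis), grouped by role, with 1 SE as bar; filled points passed the threshold (adjusted p under 0.05) and open points did not. The 19 filled points left of 0 run from -0.55 (Synj1) to -2.73 (Sv2b), and the 2 right of 0 are Syt4 (1.16) and Snap91 (0.46).

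Depth and cell state moved with the condition and are given here once for every release gene. The median share of UMIs from Malat1, a nuclear RNA, was 4.77, 4.82, 3.13, 3.41, 1.72 and 1.83% for uninjured libraries by number, and 7.34, 6.37, 7.78 and 7.78% for injured ones. Ribosomal protein transcripts took 3.66, 3.25, 2.60, 2.48, 3.90 and 4.45% and 5.40, 5.99, 5.36 and 5.23%. Mitochondrial transcripts had library medians between 2.84 and 5.63% without injury and between 1.48 and 3.15% after it. In cells with 3 to 5% of UMIs from Malat1, of which uninjured 5 and 6 held 7 and 8 and the other libraries 35 to 278, 16 release genes were lower past the threshold, 14 of them among the 19, and 1 was higher, with 15.6% lower and 17.3% higher among the 10725 genes tested there. Some log2 fold changes were smaller there than in the main comparison, such as Syt3 (-1.14 against -1.74), Rab3a (-1.24 against -1.93), Sv2b (-1.79 against -2.73) and Syn2 (-0.30 against -0.79). Others were larger, such as Unc13b (-1.16 against -0.38) and Syt11 (0.45 against 0.29). With every cell thinned to 8000 UMIs, 19 release genes were lower, 18 of them among the 19, and 1 was higher, with 21.5% lower and 18.8% higher among the 12015 genes tested there. In cells with at least 1% of UMIs from ribosomal protein transcripts, 19 release genes were lower, all 19 among the 19, and 2 were higher. Among the 14204 genes tested there, 22.7% were lower and 21.2% higher. How far Malat1 share, ribosomal share and depth entered the differences was not tested beyond these settings. Each sample is a sum over its cells, so fewer cells of a class and fewer transcripts per cell cannot be told apart in it.

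Among the 16 vesicle proteins 7 fell (43.8%), 1 rose and 8 did not pass the threshold, with a median log2 fold change of -0.41. Of all genes tested, 22.7% fell and 21.3% rose. The 3 SV2 genes, which code for glycoproteins of the vesicle membrane, diverged. Sv2b, the gene with the largest fall of the 36 in the main comparison, measured 17.9, 27.2, 61.3, 59.0, 60.1 and 53.9 CPM in uninjured 1 to 6 and 8.05, 9.66 and 4.16 CPM in injured 1, 2 and 3/4. Uninjured 1 and 2 were thus lower than the other uninjured samples, and still above every injured sample (log2 fold change -2.73 ± 0.44 (SE), adjusted p = 3.55e-04). Against uninjured 1 and 2 alone, the log2 difference of mean log2 CPM was -1.68, and against uninjured 3 and 4 or 5 and 6 it was -3.13 and -3.05. In cells with 3 to 5% Malat1 the log2 fold change of Sv2b was -1.79, and in Foxp2 cells alone -1.44. There it was not the largest fall, since Vamp1 lay at -1.86 or lower in every alternative. Sv2a, the binding site of the drug levetiracetam, measured 251 to 409 CPM (median 375) in uninjured and 129, 111 and 93.1 CPM in injured samples, again without overlap (log2 fold change -1.63 ± 0.21 (SE), adjusted p = 6.70e-05). Sv2c measured 117 to 175 CPM (median 150) and 203, 154 and 187 CPM, and its difference did not pass the threshold (log2 fold change 0.31 ± 0.16 (SE), adjusted p = 0.139). Its value was 0.45 (adjusted p = 0.0427) without uninjured 3 and 4 and -0.12 in cells without markers of another class (range over all alternatives -0.52 to 0.45, adjusted p 0.0427 to 0.945).

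The synaptotagmins, calcium sensors and related vesicle proteins, held the 1 vesicle gene that rose. Syt4, which is found on dense-core and other secretory vesicles and binds calcium weakly, measured 480, 596, 537, 542, 588 and 590 CPM in uninjured 1 to 6. It measured 1278, 1175 and 1270 CPM in injured samples, and its lowest injured value was far above its highest uninjured one, 596 CPM (log2 fold change 1.16 ± 0.14 (SE), adjusted p = 3.20e-05). Its rise lay between 1.09 and 1.36 in all 27 alternatives. Syt1, the fast calcium sensor of release, measured 2136 to 2623 CPM (median 2497) and 2241, 2119 and 1775 CPM, with overlap (log2 fold change -0.24 ± 0.16 (SE), adjusted p = 0.255). Without uninjured 5 and 6 its value was -0.33 (adjusted p = 0.0416; 0.0112 to 0.915 over all alternatives). Syt3 fell from a median of 24.0 CPM (17.9 to 35.8) to 7.0, 7.64 and 7.79 CPM (log2 fold change -1.74 ± 0.23 (SE), adjusted p = 9.00e-05). Syt2, a fast sensor closely related to Syt1, split the uninjured libraries: it measured 2.02, 4.21, 36.5, 35.5, 41.2 and 35.1 CPM in uninjured 1 to 6 and 12.3, 10.3 and 16.9 CPM in injured samples. Injured samples therefore lay above uninjured 1 and 2 and below the other 4, and the test gave no call (log2 fold change -1.01 ± 0.67 (SE), adjusted p = 0.245). Without uninjured 1 and 2 it was lower by the test (log2 fold change -1.46, adjusted p = 2.75e-04; 2.75e-04 to 0.692 over all alternatives). Syt5, Syt7, which supports slow asynchronous release, and Syt11 did not pass the threshold, with log2 fold changes of -0.22, -0.05 and 0.29. Without uninjured 3 and 4 the value of Syt11 was 0.47 (adjusted p = 0.0272; 0.0272 to 0.528 over all alternatives).

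Of the synapsins, which tether vesicles in the reserve pool, Syn2 fell from a median of 164 CPM (148 to 176) to 93.0, 93.9 and 96.3 CPM (log2 fold change -0.79 ± 0.11 (SE), adjusted p = 1.58e-04), and Syn1 measured 137 to 234 CPM (median 192) and 262, 248 and 199 CPM without a call (log2 fold change 0.32 ± 0.18 (SE), adjusted p = 0.182). Without uninjured 5 and 6 the value of Syn1 was 0.46 (adjusted p = 0.0142; 0.0142 to 0.498 over all alternatives). The call of Syn2 was lost in cells with 3 to 5% Malat1, with a smaller fold (log2 fold change -0.30, adjusted p = 0.242). It was also lost in Foxp2 cells alone, at -0.66 (adjusted p = 0.130, with 2.07e-18 to 0.242 over all alternatives). Synaptophysin (Syp), an abundant membrane protein of vesicles, measured 256, 274, 296, 292, 467 and 510 CPM in uninjured 1 to 6 and 215, 207 and 149 CPM in injured samples. Uninjured 5 and 6 were the high samples, and no injured value reached the uninjured ones (log2 fold change -0.87 ± 0.26 (SE), adjusted p = 0.0159). Its call ended without injured 3 and 4 (log2 fold change -0.70, adjusted p = 0.0903), with similar libraries summed (-0.95, 0.0653) and in Foxp2 cells alone (-0.79, 0.0524). It also ended in cells with 3 to 5% Malat1 (log2 fold change -0.48, adjusted p = 0.145, with 0.00103 to 0.145 over all alternatives).

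Rab3 GTPases sit on the vesicle and bind Rim proteins of the active zone. Rab3a measured 879, 989, 820, 806, 1955 and 2040 CPM in uninjured 1 to 6, with a mean of 1998 CPM in uninjured 5 and 6 and of 873 CPM in the other 4. Injured samples had 316, 375 and 295 CPM, below all of them (log2 fold change -1.93 ± 0.36 (SE), adjusted p = 0.00118). Without uninjured 5 and 6 the log2 fold change was -1.42 (adjusted p = 2.25e-06; 1.27e-07 to 0.0107 over all alternatives). Rab3c fell from a median of 292 CPM (214 to 334) to 207, 185 and 173 CPM (log2 fold change -0.57 ± 0.17 (SE), adjusted p = 0.0156). This call ended without injured 2 (-0.55, adjusted p = 0.0620), without uninjured 1 and 2 (-0.47, 0.0666), without uninjured 3 and 4 (-0.50, 0.0508) and without injured 3 and 4 (-0.49, 0.0854). Over all alternatives adjusted p was 2.34e-05 to 0.510. Slc17a6, the transporter VGLUT2 that loads glutamate into vesicles, measured 364 to 471 CPM (median 415) and 500, 575 and 429 CPM and did not pass the threshold (log2 fold change 0.28 ± 0.15 (SE), adjusted p = 0.171). It is among the markers on which the paper bases RGC identity, and it had a UMI in 100% of unthinned cells of every sample. Its level may therefore be conditional on the choice of cells, more so in the shallower injured cells. The vesicle proteins together summed to 6079 to 7374 CPM in uninjured and 6062, 5870 and 5199 CPM in injured samples.

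SNAREs and SNARE partners changed in 1 direction. Of the 8, 6 fell (75%, against 22.7% of all genes), none rose, and Stx1a and Napb did not pass the threshold. Their median log2 fold change was -0.94, and their summed level was 4354, 4679, 4345, 4535, 6018 and 6140 CPM in uninjured 1 to 6 and 2284, 2180 and 1927 CPM in injured 1, 2 and 3/4. Snap25, the plasma membrane SNARE that gives a pair of helices to the fusion complex, measured 3007, 3189, 2751, 2858, 4025 and 4126 CPM in uninjured 1 to 6 and 1241, 1194 and 1074 CPM in injured samples. Uninjured 5 and 6 were highest, and the lowest uninjured sample, uninjured 3, was still far above injured 1 (log2 fold change -1.51 ± 0.20 (SE), adjusted p = 9.69e-05). Vamp1 and Vamp2 are the vesicle SNAREs. Vamp1 fell from a median of 63.6 CPM (46.3 to 77.2) to 16.1, 13 and 15 CPM (log2 fold change -2.10 ± 0.19 (SE), adjusted p = 5.22e-06). Vamp2 fell from a median of 432 CPM (343 to 660) to 312, 341 and 242 CPM without overlap, though close to the threshold (log2 fold change -0.67 ± 0.24 (SE), adjusted p = 0.0407). Its call ended in 11 of the 27 alternatives. Among them were thinned cells (log2 fold change -0.68, adjusted p = 0.0503), similar libraries summed (-0.75, 0.117) and uninjured 1 and 2 left out (-0.72, 0.0644), where the fold was not smaller. The fold was smaller with injured 3 and 4 left out (-0.52, 0.176) and in Foxp2 cells alone (-0.48, 0.301). The call also ended without injured 1 (-0.70, adjusted p = 0.0985), injured 2 (-0.78, 0.0667), uninjured 2 (-0.66, 0.0619), uninjured 5 (-0.58, 0.0611) or uninjured 6 (-0.56, 0.0529). The log2 fold change of Vamp2 was -0.19 in cells with 3 to 5% Malat1 (adjusted p = 0.588, with 0.00211 to 0.588 over all alternatives), where uninjured 5 and 6 had 7 and 8 cells.

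Complexins bind the assembled SNARE complex and set when it may fuse. Cplx2 measured 161, 191, 231, 262, 278 and 287 CPM in uninjured 1 to 6 and 41.8, 48.5 and 29.0 CPM in injured samples (log2 fold change -2.57 ± 0.24 (SE), adjusted p = 6.94e-06). The lowest uninjured sample, uninjured 1, held more than 3 times the CPM of the highest injured one, injured 2. Cplx1 measured 76.1, 112, 189, 181, 241 and 236 CPM and 103, 77.0 and 95.1 CPM, and uninjured 1 lay below every injured sample, against the called direction (log2 fold change -0.91 ± 0.32 (SE), adjusted p = 0.0390). Against uninjured 1 and 2 its log2 difference of mean log2 CPM was -0.02, against -1.02 and -1.39 for the other pairs. Its call ended in 14 of the 27 alternatives, and in 1 more, Foxp2 cells alone, its direction turned (0.06). Among the 14 were fits without injured 1, injured 2, uninjured 3, 4, 5 or 6 (adjusted p = 0.0789, 0.145, 0.0607, 0.0567, 0.0576 and 0.0536). Others were injured 3 and 4 left out (-0.91, 0.106), uninjured 3 and 4 left out (-0.84, 0.0857) and uninjured 5 and 6 left out (-0.63, 0.121). Over all alternatives adjusted p was 6.92e-04 to 0.915. In cells with 3 to 5% Malat1 its value was -0.22 (0.476). Nsf, the ATPase that takes spent SNARE complexes apart, fell from a median of 362 CPM (346 to 445) to 210, 188 and 187 CPM (log2 fold change -0.97 ± 0.14 (SE), adjusted p = 1.86e-04). Its adaptor Napb measured 258 to 374 CPM (median 340) and 336, 294 and 259 CPM (log2 fold change -0.14 ± 0.16 (SE), adjusted p = 0.504). Stx1a, the syntaxin of the fusion complex, measured 19.3 to 49.3 CPM (median 32.0) and 24.2, 24.7 and 26.0 CPM, and its direction turned with the uninjured pair compared: the log2 fold change was 0.03 (adjusted p = 0.922) without uninjured 5 and 6 and -0.65 (0.0168) without uninjured 3 and 4, around -0.38 with all 6 (adjusted p = 0.324; 0.0168 to 0.922 over all alternatives).

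**Figure D2:**
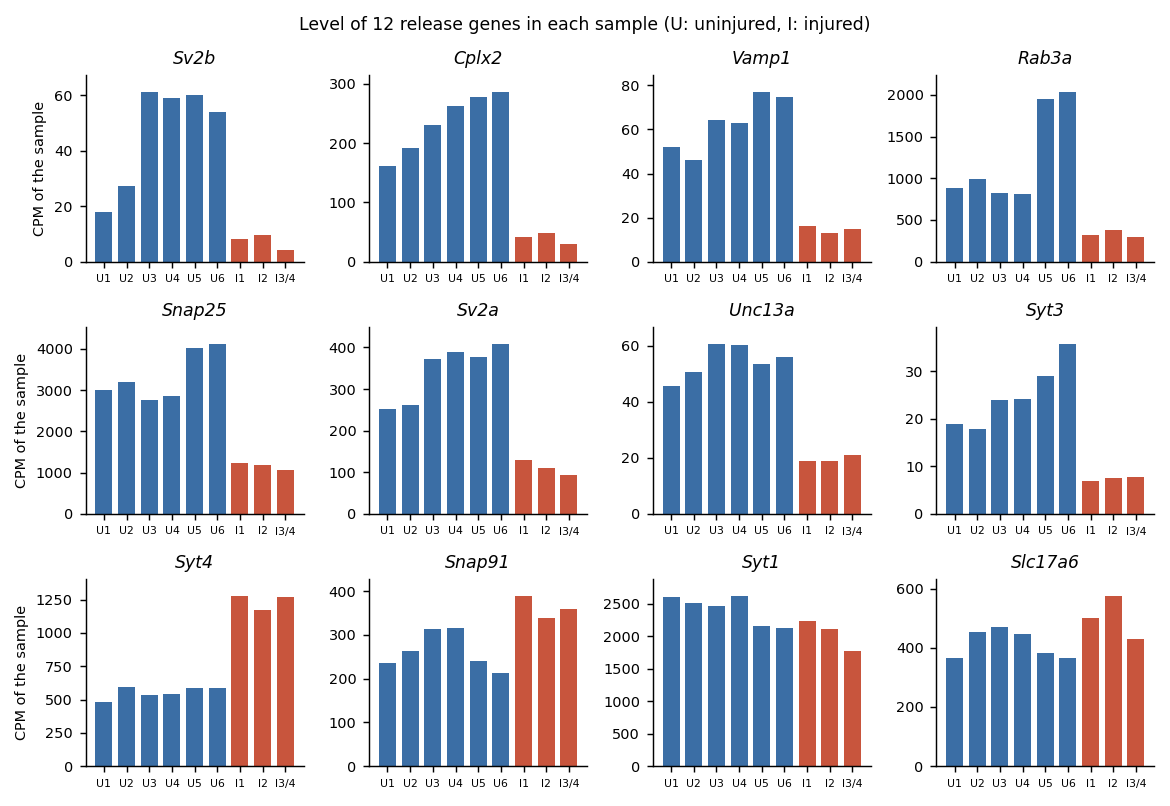
CPM (y axis, from 0) of 12 release genes in uninjured samples U1 to U6 and injured samples I1, I2 and I3/4 (x axis), 1 bar per sample. Injured bars lie below all uninjured bars for the first 8 genes and above them for Syt4 and Snap91, and overlap for Syt1 and Slc17a6; Rab3a and Snap25 are higher in U5 and U6.

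In mm39 (GRCm39) with the GENCODE annotation, the genes in question are Sv2b (ENSMUSG00000053025.15, reverse strand, chr7:74761975-74959131), Vamp1 (ENSMUSG00000030337.18, forward strand, chr6:125192340-125222927) and Sv2a (ENSMUSG00000038486.11, forward strand, chr3:96088467-96106005). The 200 bases before the canonical start of each were read from the genome as examples, chosen after their values were seen, of promoters of genes that fell; no annotated exon lies in these windows. They are written 5′ to 3′ on the gene's strand, at chr7:74959132-74959331, chr6:125192140-125192339 and chr3:96088267-96088466, and capitals mark the motif GGGCGG on either strand.
Sv2b: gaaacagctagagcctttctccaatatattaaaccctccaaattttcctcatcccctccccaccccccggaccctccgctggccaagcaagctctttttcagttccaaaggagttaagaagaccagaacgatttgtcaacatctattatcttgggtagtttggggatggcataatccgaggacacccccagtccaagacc
Vamp1: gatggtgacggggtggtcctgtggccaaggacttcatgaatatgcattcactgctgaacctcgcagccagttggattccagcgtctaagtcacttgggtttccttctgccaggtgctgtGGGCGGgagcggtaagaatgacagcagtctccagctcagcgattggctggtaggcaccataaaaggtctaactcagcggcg
Sv2a: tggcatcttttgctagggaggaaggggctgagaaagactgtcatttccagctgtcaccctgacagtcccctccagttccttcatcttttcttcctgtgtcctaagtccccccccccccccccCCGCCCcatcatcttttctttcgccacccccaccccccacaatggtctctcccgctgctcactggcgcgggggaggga
The window of Sv2a holds a run of C. GGGCGG, the core of sites for Sp factors, was found before 15 of the 36 release genes (41.7%) and before 34.8% of 21751 protein-coding genes. TGANTCA (AP-1, in 4.93% of all windows) and TGACGTCA (CRE, in 1.60%), to which factors of the injury response can bind, and the left part of the RE1 element, TTCAGCACC (0.211%), had no match in the 36 windows on either strand. The median GC content was 58.2% in the 36 windows and 54.5% in all. A match is a description of letters, not a site, and no match says nothing of the factor.

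Of the 7 active zone genes 2 fell (28.6%, close to the 22.7% of all genes), none rose and 5 did not pass the threshold. Their median log2 fold change was -0.38. Unc13a, the priming factor Munc13-1, measured 45.8, 50.7, 60.8, 60.3, 53.7 and 56.2 CPM in uninjured 1 to 6 and 18.9, 18.9 and 20.9 CPM in injured samples, with a narrow spread in both conditions (log2 fold change -1.48 ± 0.14 (SE), adjusted p = 5.13e-06). Unc13b, a priming factor of the same family, measured 51.2 to 157 CPM (median 95.0) and 71.1, 90.7 and 58.3 CPM with overlap (log2 fold change -0.38 ± 0.30 (SE), adjusted p = 0.332). Pclo, a giant scaffold protein, fell from a median of 452 CPM (319 to 507) to 245, 231 and 223 CPM (log2 fold change -0.87 ± 0.18 (SE), adjusted p = 0.00202). Its call ended in Foxp2 cells alone (log2 fold change -0.48, adjusted p = 0.232, with 8.25e-07 to 0.232 over all alternatives). Its relative Bsn measured 56.8 to 82.1 CPM (median 63.0) and 70.0, 68.0 and 48.9 CPM (log2 fold change -0.11 ± 0.16 (SE), adjusted p = 0.616). Bsn shares exon sequence on its strand with the annotated gene Gm55396, so its counts are uncertain to that extent. Rims1 and Rims2, which tie vesicles to calcium channels, measured 364 to 614 CPM (median 566) and 347 to 528 CPM (median 448) in uninjured and 481, 488 and 349 CPM and 421, 378 and 392 CPM in injured samples and did not pass the threshold (log2 fold changes -0.23 and -0.16).

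Rimbp2, which links Rim proteins to calcium channels, measured 70.1, 73.2, 75.1, 87.4, 45.4 and 40.1 CPM in uninjured 1 to 6 and 45.2, 45.6 and 40.0 CPM in injured samples (log2 fold change -0.59 ± 0.23 (SE), adjusted p = 0.0602). Uninjured 5 and 6 lay among the injured samples. Without uninjured 5 (log2 fold change -0.68, adjusted p = 0.0242), without uninjured 6 (-0.70, adjusted p = 0.0107) or without both (-0.83, adjusted p = 5.43e-05) it was past the threshold, as it was in 10 of the 27 alternatives (1.01e-05 to 0.770 over all). Among these were thinned cells (-0.66, adjusted p = 0.0424), cells with 3 to 5% Malat1 (-0.52, 0.0266) and cells without markers of another class (-0.81, 0.0149). Also among them were fits of all 10 libraries and of libraries 1 to 4, which count injured 3 and 4 as separate samples. Their number of samples is thus inflated, and the smallest adjusted p, 1.01e-05, came from libraries 1 to 4 without a block. Unc13b measured -1.16 (0.00560) in cells with 3 to 5% Malat1. Without uninjured 5 and 6 the calls also extended to Rims1 (-0.40, adjusted p = 0.0197), Rims2 (-0.30, 0.0372) and Unc13b (-0.64, 0.0218), whose adjusted p ranged over 0.00547 to 0.832, 0.0136 to 0.990 and 0.00536 to 0.754 in all alternatives. In that setting, chosen after the data had been seen, 23 release genes were lower past the threshold and 3 were higher, with 27.3% lower and 26.8% higher among the 14207 genes tested there. The summed level of the active zone genes was 1857, 1749, 1877, 1935, 1353 and 1237 CPM in uninjured 1 to 6 and 1352, 1321 and 1132 CPM in injured samples.

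All 5 endocytosis genes passed the threshold, 4 lower and 1 higher, and in each the conditions did not overlap. Of all genes tested, 22.7% fell and 21.3% rose, and the conditions did not overlap in 42.9%. Of 30 other endocytosis genes, 7 rose and 6 fell. Sh3gl2, endophilin A1, which bends membrane and recruits other factors, fell from a median of 391 CPM (344 to 420) to 213, 208 and 212 CPM (log2 fold change -0.89 ± 0.13 (SE), adjusted p = 1.77e-04). Dnm1, the neuronal dynamin that cuts the vesicle neck, fell from a median of 254 CPM (179 to 283) to 139, 152 and 122 CPM (log2 fold change -0.82 ± 0.17 (SE), adjusted p = 0.00196). Its call ended in Foxp2 cells alone (log2 fold change -0.47, adjusted p = 0.216, with 4.60e-06 to 0.216 over all alternatives). Amph, amphiphysin, fell from a median of 169 CPM (128 to 203) to 116, 108 and 96.9 CPM (log2 fold change -0.66 ± 0.17 (SE), adjusted p = 0.00797). Synj1, the lipid phosphatase that helps strip the clathrin coat, fell from a median of 144 CPM (131 to 189) to 113, 107 and 98.0 CPM (log2 fold change -0.55 ± 0.16 (SE), adjusted p = 0.0139). Without injured 3 and 4, the log2 fold change was -0.57 for Amph (adjusted p = 0.0544) and -0.48 for Synj1 (0.0812). Over all alternatives adjusted p was 2.32e-05 to 0.0583 and 5.37e-04 to 0.230. With similar libraries summed, 2 of the 5 genes, Sh3gl2 and Dnm1, kept the call, and adjusted p was 0.0583 for Amph, 0.0973 for Synj1 and 0.191 for Snap91.

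Snap91, the clathrin assembly protein AP180, was the 1 endocytosis gene that rose. It measured 236, 263, 313, 315, 240 and 213 CPM in uninjured 1 to 6 and 389, 338 and 359 CPM in injured samples (log2 fold change 0.46 ± 0.16 (SE), adjusted p = 0.0323), and uninjured 3 and 4 came close to injured 2. The call ended in 13 of the 27 alternatives, among them library totals without TMM factors (0.38, adjusted p = 0.103). It also ended without injured 1 (0.122), injured 2 (0.0571), uninjured 1 (0.0551), uninjured 2 (0.0513) or uninjured 5 (0.0540), with adjusted p of 0.00481 to 0.191 over all alternatives. The fold change stayed above 0 in all of them (0.34 to 0.65). With Snap91 lost, Syt4 was the 1 release gene past the threshold in the upward direction. The endocytosis genes summed to 1044 to 1358 CPM in uninjured and 970, 914 and 888 CPM in injured samples.

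Within families of related genes, the share of a gene among the family's UMIs lay apart between the conditions for 9 of the 11 genes followed and overlapped for 2. Shares in other families are not given, so this count stands without a background of its own. The 11 shares are not separate results, since Sv2a, Sv2b and Sv2c divide 1 family and Syt1 and Syt4 belong to another. The genes were also chosen with earlier results known. In level, a different measure, the conditions did not overlap for 42.9% of all genes. These shares are a description without a test, and since a UMI counts a molecule once, whatever its length, they were compared across samples. Of SV2 UMIs, Sv2c took 20.2 to 36.4% (median 27.8%) in uninjured samples and 59.6, 56 and 65.8% in injured 1, 2 and 3/4. Sv2a took 59.4 to 70.5% (median 62.4%) in uninjured samples and 38.1, 40.5 and 32.8% in injured 1, 2 and 3/4. Most SV2 UMIs were thus of Sv2a in every uninjured and of Sv2c in every injured sample. Whether UMIs rank the transcripts of different genes by abundance was not tested. The log2 fold change of Sv2c was -0.12 in cells without markers of another class and -0.52 in Foxp2 cells alone. Shares in those cells are not given here. Sv2b took 4.22 to 10.8% (median 9.39%) in uninjured samples and 2.37, 3.51 and 1.47% in injured 1, 2 and 3/4. Of complexin UMIs, Cplx2 held 53.5 to 67.9% (median 57.1%) in uninjured samples and 28.8, 38.6 and 23.4% in injured 1, 2 and 3/4, so that Cplx1 was the larger part in every injured sample. Of Vamp UMIs, Vamp1 held 9.18 to 15.8% (median 11.2%) in uninjured samples and 4.91, 3.68 and 5.85% in injured 1, 2 and 3/4. Within the 7 synaptotagmins, Syt4 held 13.4 to 18.1% (median 15.6%) in uninjured samples and 31.0, 30.0 and 35.6% in injured 1, 2 and 3/4, while Syt1 held 65.3 to 73.1% (median 68.3%) in uninjured samples and 54.3, 54.2 and 49.7% in injured 1, 2 and 3/4. Of synapsin UMIs, Syn1 held 48.1 to 58.3% (median 53.9%) in uninjured samples and 73.8, 72.5 and 67.4% in injured 1, 2 and 3/4. Of the UMIs of Rab3a and Rab3c, Rab3a held 72.2 to 90.5% (median 74.8%) in uninjured samples and 60.3, 67.0 and 63.0% in injured 1, 2 and 3/4. The shares of Unc13a and Rims1 overlapped between conditions, at 22.6 to 52.3% against 17.2 to 26.4%, and 51.2 to 58.4% against 47.1 to 56.3%.

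**Figure D3:**
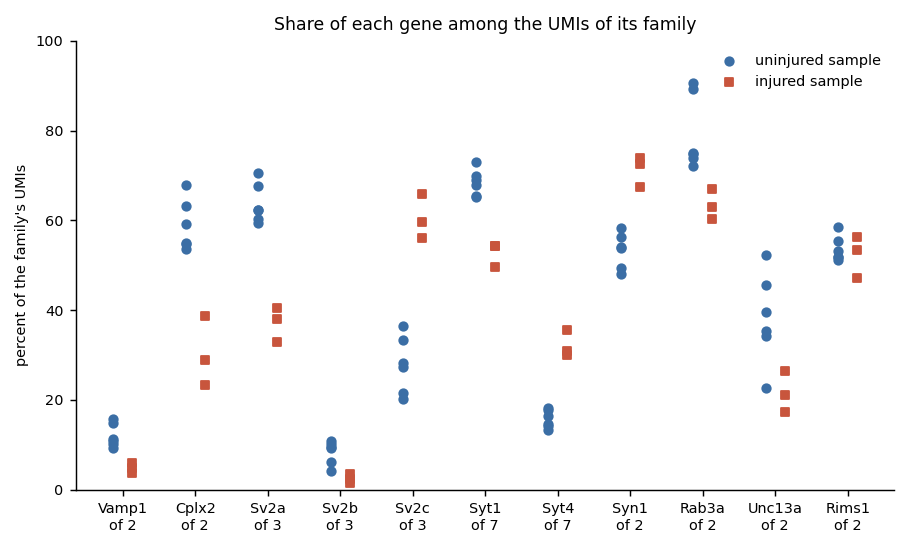
Percent of a family's UMIs that belong to the named gene (y axis) for 11 genes (x axis, with the number of genes in the family), 1 point per sample, circles for uninjured and squares for injured. Sv2a and Sv2c change places between conditions, Syt4 lies at or below 18.1% in uninjured and at or above 30.0% in injured samples, and Unc13a and Rims1 overlap.

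To see whether levels moved in many cells or few, each cell was thinned to 8000 UMIs, which left out 29 uninjured and 233 injured cells. Snap25 and Syt1 had a UMI in at least 99.6% of cells of every sample. Sv2a had one in 84.3 to 96.0% (median 91.9%) of uninjured and 54.6, 55.8 and 46.8% of injured cells. Cplx2 was seen in 65.7 to 73.3% (median 71.4%) of uninjured and 23.2, 27.5 and 18.6% of injured cells, and Vamp1 in 27.4 to 41.4% (median 33.7%) of uninjured and 11.8, 7.57 and 10.3% of injured cells. Unthinned, the shares for Cplx2 were 87.6 to 94.8% and 28.5 to 39.6%, and for Vamp1 61.7 to 73.6% and 15.8 to 20.1%. Rab3a had a UMI in most cells of both conditions, 95.1 to 100% (median 96.6%) of uninjured and 81.4, 84.5 and 70.7% of injured cells. Sv2b was seen in few cells, 10.5 to 30.0% (median 27.2%) of uninjured and 3.59, 3.98 and 2.20% of injured cells (23.5 to 51.5% and 4.50 to 7.69% unthinned). As a measure of free RNA, the photoreceptor gene Sag, which RGCs should lack, had a UMI in 0.980 to 2.50% of thinned cells of uninjured samples and 0.327, 3.19 and 0.635% of those of injured 1, 2 and 3/4. The share for Sv2b was close to that of Sag in injured 2 and above it in the other 2 injured samples.

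In counts per cell without thinning, a mean of 96.9 ± 10.9 UMIs of Snap25 (SD, n = 6) per uninjured cell compared with 18.8 ± 2.59 (n = 3) per injured cell. For Syt4, 16.7 ± 3.95 and 19.9 ± 1.5 UMIs were counted, although injured cells were shallower.

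**Figure D4:**
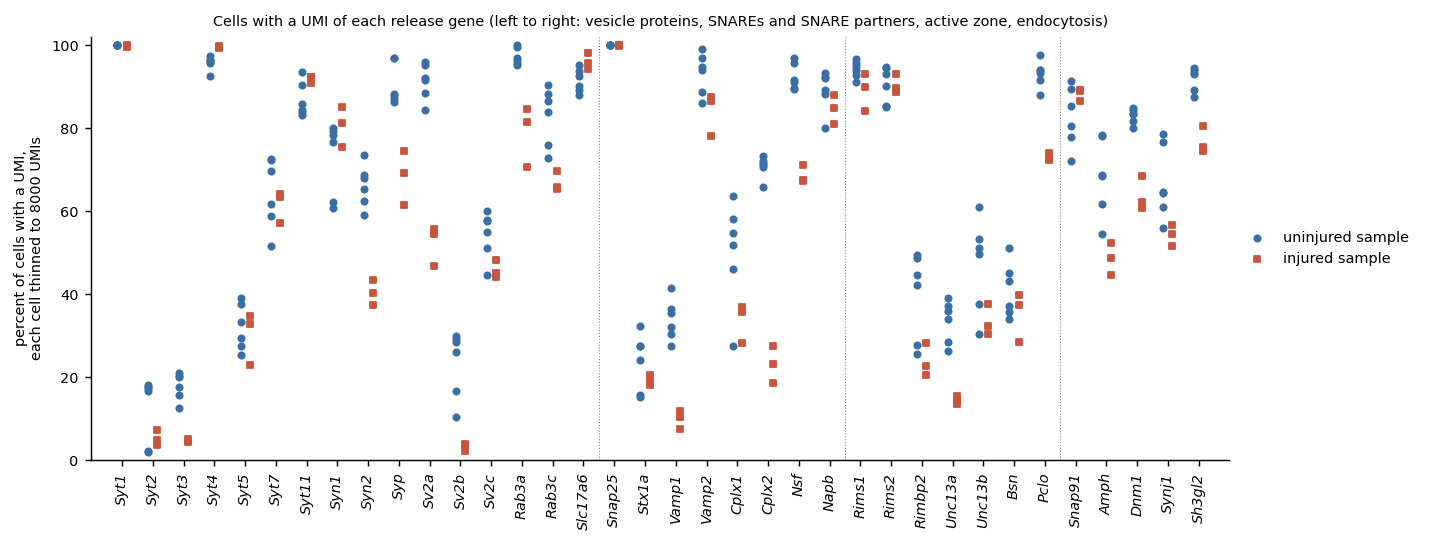
Percent of cells with at least 1 UMI of each release gene (y axis) after thinning each cell to 8000 UMIs, 1 point per sample, circles for uninjured and squares for injured, with dotted lines between roles. Cplx2 lies at 65.7 to 73.3% in uninjured and 18.6 to 27.5% in injured samples, while Syt1 and Snap25 stay near 100% in both.

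Release genes also varied among uninjured libraries, by pair. Uninjured 5 and 6 were above the other 4 uninjured libraries in 15 of the 36 genes (41.7%) and below them in 11 (30.6%), against 29.9% and 28.7% of all genes tested. The roles parted: 7 of 8 SNAREs and partners were above (Snap25, Stx1a, Vamp1, Vamp2, Cplx1, Cplx2 and Napb), and 5 of 7 active zone genes were below (Rims1, Rims2, Rimbp2, Unc13b and Pclo). The largest of these differences were Rab3a (log2 ratio of means 1.19) and Unc13b (-0.99). These are the libraries with the lowest Malat1 share, 1.72% and 1.83%, and its part in the difference was not tested. Uninjured 3 and 4 were above the others in 11 genes (30.6%), 5 of them active zone genes, and below in 5 (13.9%), against 18.1% and 17.8% of all genes. Uninjured 1 and 2 were below the others in 14 genes (38.9%) and above in 1, Rims1, against 11.8% and 10.5% of all genes. The 14 included Syt2, whose highest uninjured value was 20.4 times its lowest, Sv2b (3.43 times) and Cplx1 (3.16 times). Syn2, Sh3gl2, Syt1 and Syt4 varied least, with ratios of 1.19, 1.22, 1.23 and 1.24. Pairs are named by their closeness in the data, which the labels do not mention, and they were given no test.

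Other genes of the pathway were counted in the same way. Of 108 such genes, 107 were in the files and 100 were tested, of which 23 rose and 23 fell (23.0% each, against 21.3% and 22.7% of all genes), with a median log2 fold change of 0.02. By role, 4 rose and 8 fell of 26 other vesicle proteins (median -0.09), 6 and 2 of 23 other SNAREs and partners (0.09), 6 and 7 of 21 other active zone genes (0.11), and 7 and 6 of 30 other endocytosis genes (-0.01). Their summed level was 13725 to 15268 CPM in uninjured and 18912, 18282 and 17021 CPM in injured 1, 2 and 3/4. Nearly all of that difference came from Gap43 (mean 397 and 2578 CPM) and Nrxn3 (657 and 1909 CPM). The difference between these lists and the 36 genes was not tested. Gap43, listed with the other vesicle proteins but known as a membrane protein of growth cones and terminals, rose from a median of 378 CPM (320 to 493) to 2649, 2726 and 2358 CPM (log2 fold change 2.70 ± 0.17 (SE), adjusted p = 3.38e-07). Syt6, another synaptotagmin, rose from a median of 36.5 CPM (18.5 to 40.2) to 142, 138 and 135 CPM (log2 fold change 2.08 ± 0.21 (SE), adjusted p = 1.16e-05), and Nrxn3, a presynaptic adhesion protein, from a median of 640 CPM (501 to 837) to 2079, 1734 and 1915 CPM (log2 fold change 1.54 ± 0.20 (SE), adjusted p = 6.29e-05). The largest falls were those of Rab27b, a GTPase of secretory vesicles, from a median of 52.2 CPM (40.6 to 98.0) to 13.5, 11.7 and 11.5 CPM (log2 fold change -2.28 ± 0.29 (SE), adjusted p = 6.16e-05), of Rph3a, a protein that binds Rab3, from a median of 348 CPM (290 to 406) to 83.7, 87.1 and 59.9 CPM (log2 fold change -2.16 ± 0.19 (SE), adjusted p = 2.98e-06), and of Synpr, a relative of Syp, from a median of 298 CPM (286 to 349) to 77.2, 95.2 and 52.8 CPM (log2 fold change -2.04 ± 0.19 (SE), adjusted p = 6.04e-06). Rph3a and Synpr were named for the size of their falls, so they do not speak for other partners of Rab3a or relatives of Syp. Rims1 and Rims2, whose proteins Rab3 also binds, did not pass the threshold (log2 fold changes -0.23 and -0.16).

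RGCs comprise many classes, and release genes were compared between cells that carried a class marker (at least 2 UMIs after thinning to 8000) and the other cells of the same uninjured library, with the library as a block. Opn4 (melanopsin) marks intrinsically photosensitive RGCs, Cartpt direction-selective RGCs, and Foxp2 the F-type RGCs. Opn4 cells numbered 9, 5, 13, 11, 6 and 5 in uninjured 1 to 6. In them 16 of the 34 release genes tested were past the threshold, 14 lower and 2 higher, against 16.8% of all genes. Cplx2 measured 53.5 ± 23.5 CPM against 279 ± 52.4 CPM in the other cells (mean ± SD over 6 libraries) and was lower in 6 of 6 libraries (log2 fold change -2.42 ± 0.28, adjusted p = 1.35e-13). Vamp1 measured 11.7 ± 13.8 CPM against 68.8 ± 15.1 CPM (log2 fold change -2.36 ± 0.53, adjusted p = 1.82e-04), and Sv2b 14.3 ± 30.2 CPM against 52.0 ± 20.9 CPM (log2 fold change -2.28 ± 0.62, adjusted p = 0.00288), lower in 5 of 6 libraries. In uninjured 1 to 6, Opn4 cells had 14.6, 24.5, 30.9, 0, 0 and 0 CPM of Vamp1. For Sv2b they had 0, 0, 10.3, 0, 0 and 75.4 CPM. The folds of Vamp1 and Sv2b thus rest on few UMIs in few cells. On the other side, Syt5 (119 ± 78.4 CPM against 58.2 ± 16.5 CPM; log2 fold change 0.92 ± 0.30, adjusted p = 0.0191) and Rims2 (857 ± 239 CPM against 464 ± 95.3 CPM; log2 fold change 0.88 ± 0.15, adjusted p = 5.01e-07) were higher in all 6 libraries. Snap25 came next, as the smallest of the 14 differences in the lower direction (2796 ± 507 CPM against 3682 ± 711 CPM; log2 fold change -0.39 ± 0.13, adjusted p = 0.0204). Of the 14 genes lower in Opn4 cells, 8 are among those that fell after ONC, close to the 52.8% of all 36 release genes that fell. Without thinning, 10 release genes were past the threshold, 8 of them the same with the same direction. The share of all genes past it without thinning is not given here, so the 10 stand without a background.

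Opn4 cells were few, and their share did not separate the conditions: 9.47, 4.90, 3.61, 1.71, 2.37 and 2.50% of thinned cells for uninjured libraries by number, and 1.96, 3.59, 3.48 and 3.62% for injured ones. The level of Opn4 was 60.6, 41.2, 31.7, 16.3, 27.6 and 20.2 CPM in uninjured and 17.0, 29.0 and 21.5 CPM in injured samples (log2 fold change -0.52 ± 0.37 (SE), adjusted p = 0.275). When cells with any UMI of Opn4 were left out, 2 release genes were higher and 20 were lower past the threshold after ONC, with all 19 among the 20 and 22.9% lower and 21.3% higher among the 13913 genes tested there. Cartpt itself fell after ONC, from a median of 620 CPM (177 to 947) to 31.7, 43.6 and 50 CPM (log2 fold change -3.76 ± 0.59 (SE), adjusted p = 2.93e-04). Foxp2 fell from a median of 96.4 CPM (80.9 to 129) to 50.4, 37.3 and 41.4 CPM (log2 fold change -1.25 ± 0.20 (SE), adjusted p = 3.10e-04). Cells that carry these markers may therefore not be the same part of a class in both conditions. Every value for Foxp2 cells alone has this limit. Among Foxp2 cells alone, of which there were 8 to 121 per uninjured and 18 to 34 per injured library, 10 of the 19 genes were lower (Syt3 was not tested there) and 1 of the 2 was higher past the threshold, with 12.6% lower and 13% higher among the 5748 genes tested there. Both of these settings were chosen after the data had been seen. Alpha RGCs, marked by Spp1, reached the minimum of 5 marker cells in 1 uninjured library and could not be compared as the other classes were. Fits that were possible took cells with at least 1 UMI (25 cells of 3 libraries), unthinned cells (27 cells of 3 libraries) or summed libraries (17 cells of 2 units). In these 1, 11 and 3 of the 36 genes passed the threshold, against 0.939, 6.37 and 1.05% of all genes. Syt2 was higher in Spp1 cells in each of them (log2 fold change 2.13 ± 0.44, 1.98 ± 0.19 and 2.48 ± 0.51; adjusted p = 4.86e-04, 2.83e-10 and 3.19e-04), and Vamp1 and Cplx1 were higher in the last 2. Spp1 measured 0, 0.561, 19.0, 6.17, 56.4 and 47.6 CPM in uninjured and 65.1, 32.6 and 180 CPM in injured samples (log2 fold change 2.10 ± 0.91 (SE), adjusted p = 0.0813), and Kcng4, another marker of alpha RGCs, measured at most 2.49 CPM in any sample. How far a different make-up of RGC classes entered the differences after ONC was not tested beyond these settings.

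The 617 cells called Cartpt cells were 31.4 to 43.0% of an uninjured library's thinned cells, and the share of them with Cartpt from free RNA was not measured, so they may not all be of the direction-selective class. In them 6 of 36 release genes were past the threshold, against 6.08% of all genes. Cplx1 (184 ± 51.1 CPM against 130 ± 55.5 CPM; log2 fold change 0.47 ± 0.10, adjusted p = 0.00253), Sv2c (167 ± 40.9 CPM against 136 ± 28.7 CPM; log2 fold change 0.39 ± 0.10, adjusted p = 0.0156), Rab3a (log2 fold change 0.31 ± 0.08, adjusted p = 0.0191), Cplx2 (log2 fold change 0.31 ± 0.09, adjusted p = 0.0316) and Syt4 (log2 fold change 0.29 ± 0.08, adjusted p = 0.0261) were higher and Rims2 was lower (370 ± 86.3 CPM against 482 ± 96.5 CPM; log2 fold change -0.36 ± 0.09, adjusted p = 0.0103). With similar libraries summed to 3 blocks, 1 of the 6 was left. Which gene that was, and the share of all genes past the threshold in that fit, are not given here. In the 274 Foxp2 cells 8 of 35 were past it, against 7.29% of all genes. Sv2c (84.1 ± 32.7 CPM against 162 ± 33.7 CPM; log2 fold change -0.96 ± 0.14, adjusted p = 3.65e-07), Cplx1 (85.9 ± 35.4 CPM against 162 ± 59.7 CPM; log2 fold change -0.94 ± 0.14, adjusted p = 5.72e-07), Syt5 (log2 fold change -0.76 ± 0.19, adjusted p = 0.00362) and Syn2 (log2 fold change -0.46 ± 0.13, adjusted p = 0.0150) were lower. Unc13b (150 ± 51.9 CPM against 97.8 ± 36.8 CPM; log2 fold change 0.63 ± 0.12, adjusted p = 1.67e-04), Syt7 (log2 fold change 0.50 ± 0.12, adjusted p = 0.00166), Rab3c (log2 fold change 0.40 ± 0.11, adjusted p = 0.00979) and Nsf (log2 fold change 0.32 ± 0.11, adjusted p = 0.0485) were higher. With the marker at 1 UMI 5 release genes passed, all 5 among the 8, and with libraries summed 5 passed, 4 of them among the 8. The share of all genes past the threshold in these fits is not given here, so the counts stand without a background. In the fits by library, Cplx1 thus was low in Opn4 and Foxp2 cells and high in Cartpt cells, each against the other cells of the same libraries. The 3 comparisons share cells, and the differences between classes were not tested against each other.

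**Figure D5:**
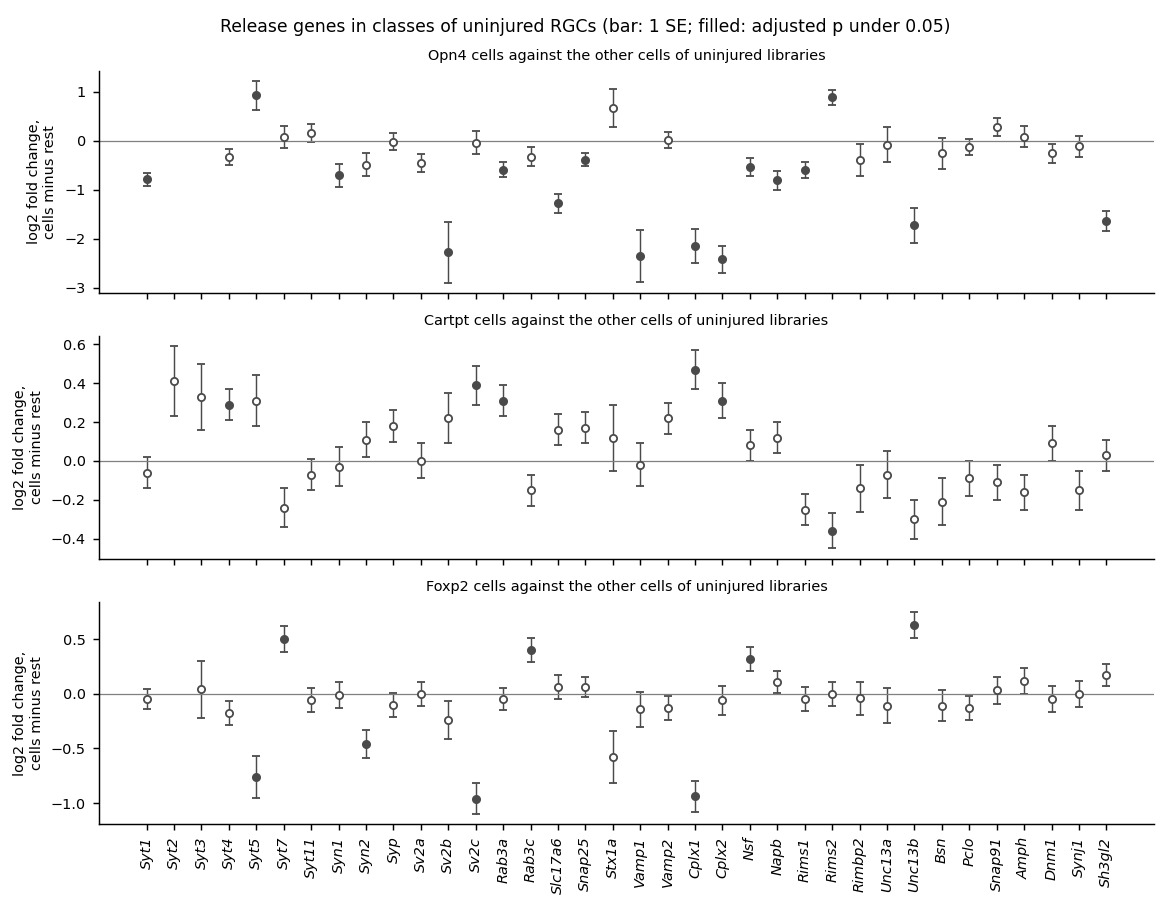
Log2 fold change of each release gene (x axis, by role) in cells with a class marker minus the other cells of uninjured libraries (y axis, scaled per panel), with 1 SE as bar; filled points passed the threshold. The Opn4 panel holds 14 filled points below 0, down to -2.42 (Cplx2), and 2 above; the Cartpt and Foxp2 panels hold 6 and 8 filled points within 1 of 0.

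Lists of markers of other retinal cells were summed in the same way, and several of them hold genes that RGCs also express. The 9 amacrine markers summed to 60.9 to 213 CPM in uninjured and 340, 295 and 273 CPM in injured samples, led by C1ql2 (17.6 and 196 CPM on average), with 2 of 8 tested higher. The 8 bipolar markers summed to 80.5 to 136 and 110 to 160 CPM, nearly all from Prkca (98.4 and 138 CPM). The 8 Muller glia markers summed to 126 to 195 and 149 to 196 CPM, with Dkk3 the most abundant over all 9 samples (87.7 and 15.6 CPM), with 4 of 7 tested higher and 2 lower. The 4 astrocyte markers summed to 231 to 777 and 44.9 to 49.6 CPM, led by Aldoc (472 and 41.3 CPM on average), with 1 of 3 tested lower. Microglia and macrophage markers (8 genes, led by Cx3cr1 with 3.39 and 9.66 CPM) summed to 5.33 to 18.5 and 7.92 to 20 CPM, with 1 of 2 tested higher. Endothelial markers (5 genes, led by Pecam1; Cdh5 at 0) summed to at most 6.47 CPM, pericyte markers (4 genes, led by Rgs5; Kcnj8 at 0) to at most 3.68 CPM, and the 4 horizontal cell markers (Lhx1 at 0) to 180 to 402 and 183 to 216 CPM, led by Tpm3, with 2 of 3 tested lower. The amacrine sums thus lay higher and the astrocyte sums lower in every injured sample, mainly through 1 gene each, C1ql2 and Aldoc. They therefore do not speak for the other markers of these lists, and over all genes tested 21.3% rose and 22.7% fell. The part of these markers in the differences of release genes was not tested beyond the next setting. Cells with at least 3 markers of another class made up 30.6, 31.1, 44.4, 52.7, 33.7 and 34.3% of uninjured libraries by number, and 25.1, 29.3, 19.0 and 15.5% of injured ones, so this share differed between the conditions, as depth did. When they were left out, 20 release genes were lower past the threshold, including all 19, and 2 were higher, with 22.9% lower and 20.7% higher among the 13008 genes tested there.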

How the data were processed

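UMI counts per gene and cell were made by the authors with Cell Ranger 7.0.1 on mm39 and deposited as 10 tables (methods text names an older version), with 1683 uninjured and 1609 injured barcodes, 1188 of the latter distinct after the overlap of injured 3 and 4. The authors based RGC identity on co-expression of Rbpms, Slc17a6, Sncg and Tubb3. They set limits on mitochondrial share, genes and UMIs per cell, the last against doublets. No further doublet caller was run, but a setting without cells carrying markers of another class was. The number of injured cells stated in the study differs from the barcodes in the tables. Counts were summed per library (Python 3.11.15 with pandas 2.3.3, scipy 1.17.1, numpy 2.4.6), libraries injured 3 and 4 were averaged, and CPM were computed with TMM factors. Genes were filtered with filterByExpr and tested with the robust quasi-likelihood test of edgeR 4.0.16 in R 4.3.3, with p adjusted over all genes tested by the method of Benjamini and Hochberg; the steps were tested on simulated data. The exact permutation test was two-sided, 6 samples against 3. Alternatives were DESeq2 1.42.0, library totals, no filter, thinning to 8000 UMIs, subsets of cells by Malat1, ribosomal share or markers, summed or left-out libraries, and, chosen after the data had been seen, cells without Opn4, Foxp2 cells alone and each uninjured pair left out. Class fits used uninjured cells thinned to 8000 UMIs, at least 5 marker cells per library, and the library as block. All 36 release genes were named, of other pathway genes the 3 largest rises and 3 largest falls among genes whose average log2 CPM reached 5 and whose conditions did not overlap, and for a class every release gene past the threshold, or the 3 highest and 3 lowest where more than 8 passed. Members and lists were chosen with earlier results of these data known. Figures used matplotlib 3.10.9.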

Additional observations from a re-analysis of the deposited data

Results flagged for a closer look

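UMIs of mCherry, a transcript outside the comparisons of the report, marked 7.99% (injured 1), 15% (injured 2), 86.0% (injured 3) and 84.3% (injured 4) of cells. None of the 1683 uninjured cells had such a UMI, which over the pooled cells allows a share with a detected UMI of up to 0.178% and sets no limit on cells below detection. What drew attention to these values is a signal outside the main measurement, above the level of the uninjured libraries. No cause was tested. Leaving out injured 3 and 4 left 13 release genes lower and 1 higher past the threshold, with 17.4% lower and 17.9% higher of all genes tested.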

How the results depend on the processing

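Of the 21 release genes past the threshold, 20 kept their direction and 11 their call in each of the 27 alternatives that tested them. Syt3 was not tested in Foxp2 cells alone. The exception in direction was Cplx1, at 0.06 in Foxp2 cells alone. Such shares over all genes are not given here, so the 20 and the 11 stand without a background. All other reversed values belong to genes without a call. In Foxp2 cells alone they were Syt1 0.05, Syt5 0.45, Syt7 0.02, Sv2c -0.52, Napb 0.02, Rims2 0.05 and Bsn 0.32. In cells within the Malat1 range Syt5 was 0.23, and without cells carrying other markers Sv2c was -0.12 and Rims2 0.03. Syt7 was 0.01 in cells with no Opn4 UMI, 0.04 with uninjured 1 and 2 or uninjured 3 and 4 left out, 0.01 without uninjured 1 and 0.00 without uninjured 4, in a range of -0.11 to 0.01 with 1 library left out. Bsn was 0.06 with injured 3 and 4 left out and 0.05 with uninjured 3 and 4 left out, and Stx1a was 0.03 with uninjured 5 and 6 left out. The cause was not tested.

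The count of all genes past the threshold was 6256, and 1468 in Foxp2 cells alone, 3528 in the Malat1 range, 4961 to 6420 with 1 library left out and 4285 to 8230 in all other settings. Release genes past the threshold in the upward direction numbered 2, and 1 in Foxp2 cells alone, in thinned cells, in the Malat1 range, with injured 3 and 4 left out, with library totals, with no filter, with similar libraries summed and with uninjured 1 and 2 left out. They numbered 4 with uninjured 3 and 4 left out, 3 with uninjured 5 and 6 left out or with libraries 1 to 4 and no block, and 1 to 2 with 1 library left out. Those in the downward direction numbered 19, and 10 in Foxp2 cells alone, 16 to 19 with 1 library left out and 13 to 24 in all other settings, with 13 where similar libraries were summed or injured 3 and 4 left out. For classes, release genes past the threshold went from 16 to 10 for Opn4 without thinning, from 6 to 1 for Cartpt with similar libraries summed, and from 8 to 5 for Foxp2 with 1 UMI of the marker or with similar libraries summed. The cause was not tested. The shares of all genes in these class fits are not given here, so the counts stand without a background.

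With libraries 1 to 4 of each condition and a replicate block, 7782 genes passed the threshold, against 8230 without the block. These fits count injured 3 and 4 as separate samples although they share barcodes, so their number of samples is inflated and their counts set the top of the ranges above. Release genes numbered 2 higher (3 without the block) and 24 lower (24), and Stx1a was 0.03 in both. Deviations of libraries with the same number correlated at -0.0577, 0.00889, -0.0445 and -0.0484, so the numbers share no visible pairing.

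The counts rest on 3 injured samples, pools of unstated animals and shallower injured cells. Genes near the detection limit, such as Syt3, Stx1a and Sv2b, are measured with few UMIs per cell. The planned comparison of thinned Spp1 cells by library had enough cells in 1 library. Conditions differ in depth, Malat1 and ribosomal share, and these cannot be told apart from injury.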
